A study of Oryza sativa Indica Group with 10 samples.

Results

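The 2 empty-vector controls of a rice transgenic series were compared with each other: 2 arrays of seedlings carrying pANDA, a vector built for RNA interference, and 2 arrays of seedlings carrying B4NU. These were 4 of the 10 arrays in the series. Both are labelled as vector controls, without naming the transgene that each serves as a control for. The other 6 arrays were 2 each of OsbZIP48 seedlings with a lethal OsbZIP48 knock-down (KD lethal), seedlings with an OsbZIP48 knock-down but a normal look (KD wild-type-like) and OsbZIP48 over-expressing seedlings (OE). OsbZIP48 is a bZIP protein of the HY5 type, a class of factors that act in light-dependent seedling growth. All 5 groups came from the Indica cultivar Pusa Basmati 1, germinated on MS medium in light at 28 °C. The labels give an age of 10 days, the design text 7 days. The tissue is labelled whole seedling, while the extraction text speaks of roots. Replicates are labelled biological, and how many transformed lines they represent was not stated in the labels.

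Members were chosen by the 4 vector arrays' own log2 values. Probe sets were kept when they were no array control, had a mean log2 signal above 6 in at least one vector, and differed by at least 1 log2 unit, which is 2-fold, between the vector means. Of 7399 probe sets above 6 in a vector, 968 met this rule (13.1%): 427 were higher in pANDA (5.77%) and 541 were lower in pANDA (7.31%). Of the 427, 273 passed the level filter through pANDA alone, and of the 541, 330 passed it through B4NU alone. Such probe sets could only fall on that side. The rule used these very values, so all differences between the vectors are given as a description without a test. In all 968 probe sets both pANDA arrays lay on the same side of both B4NU arrays, as they did in 85.2% of the 7399. The platform annotation paired 778 of the 968 with exactly 1 gene, which gave 748 genes, of which 149 have a name.

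Jasmonate, a lipid hormone of wounding and defence responses, is perceived by COI1 receptors, which mark the JAZ repressors for destruction by the proteasome. JAZ genes are themselves early jasmonate-response genes, so their transcripts are a usual readout of the pathway. DREB1 proteins are AP2-type transcription factors known for their fast transcriptional response to cold. Diterpenoid phytoalexins are antimicrobial compounds that rice makes with terpene synthases and cytochrome P450 enzymes, and PBZ1 is a PR10-type pathogenesis-related protein long used as a rice defence marker.

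The vectors lie in 2 sets of arrays that appear to have been normalized apart. The lowest log2 value was 2.441 on the 6 pANDA, KD lethal and KD wild-type-like arrays and 2.440 on the 4 OE and B4NU arrays. Identical values at the same probe set numbered 16934 to 20119 between arrays of a set and 0 between the sets. Vector and set cannot be told apart, and so small differences were not read. The median difference, pANDA minus B4NU, was -0.29 log2 over the 7399 probe sets and -0.01 over all 57258. The median absolute difference between the vectors was 0.444, against 0.113 between the 2 pANDA arrays and 0.101 between the 2 B4NU arrays. Replicates 1 or more apart were found at 10 probe sets for pANDA and at 6 for B4NU. After centring every array on its median the split became 554 higher and 258 lower, so that 68.2% of the kept probe sets were higher in pANDA, against 44.1% as deposited. Centring also took the median difference over the 7399 to -0.09, so gene group medians are read against the median of all genes.

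**Figure D1:**
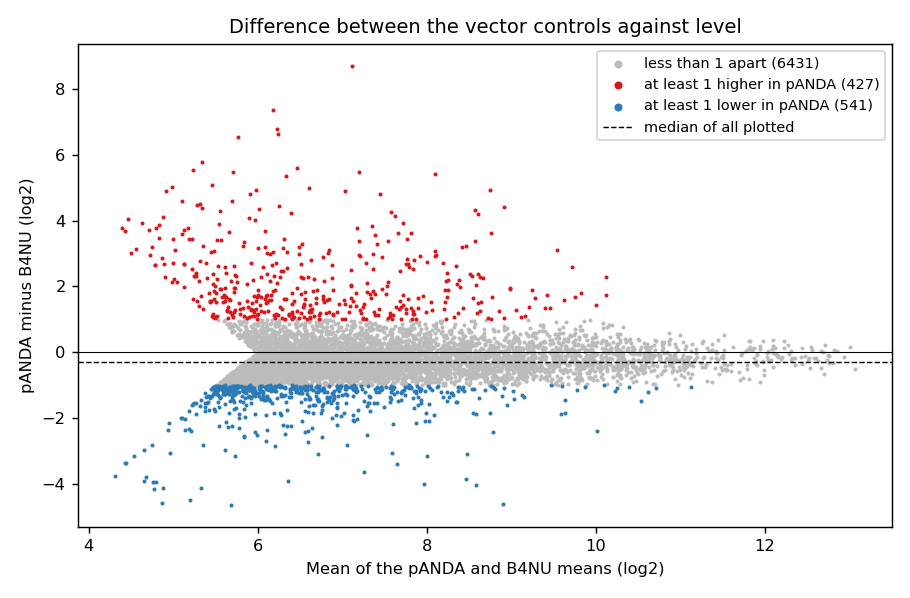
Difference between the vectors (pANDA minus B4NU, log2) against the mean of both vectors (log2) for 7399 probe sets. The 427 red points lie 1 or more above 0 and reach 8.69, the 541 blue points lie 1 or more below 0 and reach -4.63, and the dashed line marks the median of -0.29.

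The higher side held larger differences than the lower side. The median difference was 1.84 among the 427 probe sets higher in pANDA and -1.22 among the 541 lower ones. Differences of at least 3 were found at 93 higher and 27 lower probe sets, and differences of at least 4 at 39 higher and 9 lower ones. Both arrays of B4NU lay within 0.5 of the lowest value, here called the floor, at 16 of the 427, and both arrays of pANDA did so at 9 of the 541. Against a group at the floor a fold is a lower bound.

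RNA controls stood slightly apart between the vectors, leaf-linked markers were close, and some root-linked markers were higher in pANDA. The mean 3′ minus 5′ signal of ubiquitin, GAPDH and cyclophilin was 2.08 and 2.16 log2 in pANDA, against 1.72 and 1.53 in B4NU. Poly-A control probe sets averaged 4.74 and 4.74 in pANDA, against 4.12 and 3.93 in B4NU. The part of these shifts in the results was not tested. Leaf-linked genes averaged 10.28 and 10.19 log2 in pANDA, against 10.19 and 10.27 in B4NU (11 genes, none at the floor), and 0 of the 10 above 6 differed by 1 or more. Root-linked genes averaged 5.41 and 5.42 in pANDA, against 5.19 and 5.17 in B4NU (22 genes, of which 8 were at the floor on each pANDA array and 6 on each B4NU array). Leaf and root transcripts were thus both present. Of the 10 root-linked genes above 6, 3 were at least 1 higher in pANDA and 0 were at least 1 lower. Among all genes above 6 these shares were 5.44% and 6.58%. The silicon transporter gene Lsi2, the nicotianamine synthase gene NAS2 and the phosphate transporter gene PT8 were 1.26, 1.05 and 1.07 higher. PT8 passed the level filter through pANDA alone, as 3 of the 10 did, so it could only count as higher. NAS1 at -0.49, tom1 at -0.48 and NAAT1 at -0.47 went the other way. The median over these 10 was 0.58, against -0.29 over all genes above 6. In whole seedlings, fewer cells of a type and less RNA per cell cannot be told apart.

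Probe sets whose names start with RPTR are directed, by the array maker's naming, at reporter and marker sequences that are not rice genes. The annotation used here pairs none of the 64 with a gene, so they are given by name only. They were looked at after values had been seen and were not tested. On 60 of them every array stayed at or below 2.91. One was among the 968: RPTR-Os-A06498-1_at read 8.94 and 9.13 in pANDA, against 2.51 and 2.48 in B4NU, at least 93.1-fold higher. KD lethal had 4.14 and 3.67 there, KD wild-type-like 4.03 and 3.94, and OE 2.48 and 2.47. The pANDA arrays therefore stood apart from all 8 others at this probe set, the knock-down arrays included.

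RPTR-Os-K01193-1_at was above 6 in both vectors and did not meet the rule, at 6.80 and 6.85 in pANDA and 7.17 and 7.13 in B4NU. The OE arrays stood above both vectors, at 10.08 and 10.22. The knock-down arrays were at the floor, at 2.65 and 2.59 (KD lethal) and at 2.58 and 2.58 (KD wild-type-like). RPTR-Os-U57609-2_s_at showed the reverse, reading 5.99 and 5.69 on the KD lethal arrays and 5.61 and 6.002 on the KD wild-type-like arrays, against 2.44 and 2.45 in pANDA. It lay at 2.44 on every OE and B4NU array. At these 2 probe sets the pANDA arrays thus stood apart from both knock-down groups without overlap. RPTR-Os-NC_002086-1_at read 4.13 and 3.37 in pANDA, against 2.55 and 2.55 in B4NU, below the level of 6.

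**Figure D2:**
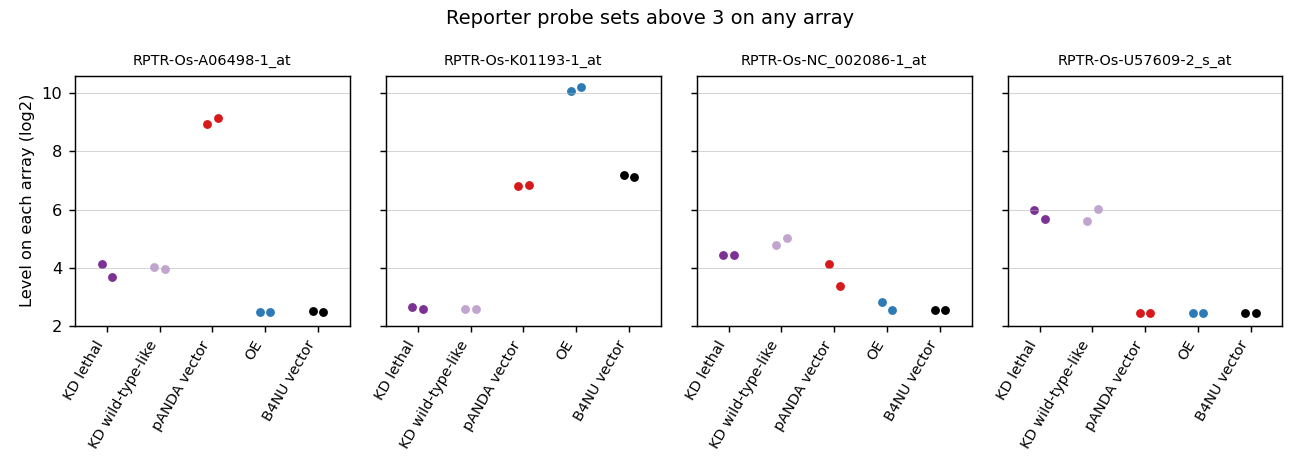
Level on each array (log2, vertical axis) of the 4 reporter probe sets above 3 on any array, by group, with 1 point per array. The pANDA arrays stand near 9 at RPTR-Os-A06498-1_at, and both knock-down groups lie at the floor at RPTR-Os-K01193-1_at, where pANDA, OE and B4NU do not.

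Genes of jasmonate signalling were among those most apart. Of 24 listed genes 17 were above 6 in a vector, and 6 of these were higher in pANDA and 2 lower, against 5.44% and 6.58% of all 5885 genes above 6. The counts of every gene group below are read against these shares. In every group, genes above 6 in 1 vector alone could only count on that side. Among the 17 these were 4 through pANDA alone, BHLH148 included, and 3 through B4NU alone. The median over the 24 was 0.19, against -0.15 over all genes. JAZ13, a JAZ repressor gene, read 11.17 and 11.25 in pANDA, against 6.08 and 6.49 in B4NU, 30.4-fold higher. JAZ10, of the same family, read 11.12 and 11.12 in pANDA, against 6.65 and 6.78 in B4NU, and its other probe set differed by 4.03. BHLH148, a basic helix-loop-helix factor that binds JAZ proteins in rice, read 9.87 and 10.01 in pANDA, against 4.41 and 4.53 in B4NU. All 3 genes were high on both pANDA arrays and had no overlap with B4NU.

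The other JAZ genes were spread between strong and no difference. JAZ9 (LOC4331832) was 2.66 higher in pANDA, JAZ12 was 2.38 higher and JAZ6 was 1.36 higher. JAZ4 at 0.99 lay just under the threshold. JAZ11 differed by 0.13 and JAZ7 by 0.06, although their levels in pANDA and B4NU were above 6. JAZ3 was the lowest of the JAZ genes above 6, at -0.94. Upstream of the repressors the picture was mixed. COI1B, a jasmonate receptor gene, read 6.68 and 6.91 in pANDA, against 7.90 and 8.09 in B4NU, a difference of -1.21. The lipoxygenase gene CM-LOX1 was 1.005 lower in pANDA, and its partner CM-LOX2 read 2.82 and 2.68 in pANDA, against 5.71 and 5.40 in B4NU, below the level filter.

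The largest differences of any named genes were in the DREB1 family. DREB1B read 9.58 and 9.51 in pANDA, against 2.92 and 2.93 in B4NU, at least 98.8-fold higher. DREB1G read 8.02 and 7.97 in pANDA, against 2.44 and 2.49 in B4NU, at least 46.2-fold higher. DREB1A read 7.89 and 7.98 in pANDA, against 4.33 and 4.16 in B4NU. B4NU was at the floor for DREB1B and DREB1G, and no B4NU array came near a pANDA array at any of the 3. DREB1E read 4.62 and 4.53 in pANDA, against 2.52 and 2.48 in B4NU, and did not pass the level filter.

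Dehydrin and late-embryogenesis genes protect dehydrating cells, and of those listed only LIP9 met the rule. LIP9, a dehydrin gene, was 1.23 higher in pANDA. RAB21, another dehydrin, read 3.85 and 3.76 in pANDA, against 5.94 and 5.71 in B4NU, and did not pass the level filter. The transcription factor gene DREB2A differed by -0.07 and did not pass it either. Over the 17 genes of the list, 7 were above 6, of which 4 were higher in pANDA (DREB1B, DREB1G, DREB1A and LIP9) and 0 were lower. The 3 DREB1 genes passed the level filter through pANDA alone, so they could only count as higher. The list median was 0.00.

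Of 14 WRKY and NAC transcription factor genes 7 were above 6, with 3 higher in pANDA, all of them WRKY genes, and 0 lower. WRKY76 and WRKY24 passed the level filter through pANDA alone, so they could only count as higher. Of all genes above 6, 5.44% were higher and 6.58% lower. WRKY76, known in rice as a repressor of defence genes with a role in cold tolerance, read 8.21 and 8.41 in pANDA, against 3.65 and 3.37 in B4NU. WRKY71 was 3.37 higher and WRKY24 was 3.28 higher. The median over all 14 was 0.70, and 0.36 with the mean of all probe sets of each gene. The NAC genes above 6 stayed below the threshold, with NAC071 at 0.94, NAC067 at 0.82, NAC048 at 0.76 and NAC068 at 0.25. MYB2, a MYB factor tied to salt, cold and dehydration tolerance in rice and in no list, read 8.64 and 8.25 in pANDA, against 3.46 and 3.58 in B4NU, 30.4-fold higher.

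Calcium sensors and phosphatases, grouped after their values had been seen, held further large differences. Of 23 calmodulin-like CML genes 13 were above 6, 6 of them higher in pANDA and 1 lower, against 5.44% and 6.58% of all genes above 6. CML31 read 9.66 and 9.62 in pANDA, against 6.72 and 6.401 in B4NU, a difference of 3.08. CML27 and CML15 were each 2.82 higher in pANDA, CML10 was 2.32, CML16 was 2.29 and CML18 was 1.92 higher. CML8 went the other way at -1.04. The list median over all 23 genes was 0.13.

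Protein phosphatases 2C include negative regulators of abscisic acid signalling. Of 55 genes 22 were above 6, with 7 higher in pANDA and 2 lower, against 5.44% and 6.58% of all genes above 6. Of the 22, 6 passed the level filter through pANDA alone and 3 through B4NU alone. Such genes could only count on that side. The median over the 55 was 0.01, or -0.04 with the mean of all probe sets of each gene. OsPP2C32 read 6.68 and 6.65 in pANDA, against 4.23 and 4.34 in B4NU. XB15, a phosphatase that binds the XA21 immune receptor in rice, was 2.37 higher, and PP2C30 was 1.93 higher. OsPP2C62 was 1.66 lower in pANDA. ABA8OX1, which encodes an abscisic acid 8′-hydroxylase that breaks the hormone down, read 9.30 and 9.65 in pANDA, against 5.85 and 5.84 in B4NU.

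In 3 smaller families, also grouped after values had been seen, single genes differed while the family medians stayed near or below 0. These medians were -0.21 for 13 stress-associated zinc finger (SAP) genes, 0.01 for 9 trehalose phosphate synthase and phosphatase genes, and -0.38 for 15 mitogen-activated protein kinase (MPK) genes. SAP11 was 3.05, SAP17 1.88 and SAP1 1.74 higher in pANDA, among 7 of 13 SAP genes above 6 (3 higher, 0 lower). Of these 7, 2 passed the level filter through pANDA alone. Of all genes above 6, 5.44% were higher and 6.58% lower. TPP1, a trehalose-6-phosphate phosphatase gene, read 9.24 and 9.31 in pANDA, against 5.39 and 5.46 in B4NU. TPP7, of the same enzyme family, read 9.12 and 8.98 in pANDA, against 5.74 and 5.79 in B4NU. They were 2 of 3 trehalose genes above 6 among 9 listed, and passed the level filter through pANDA alone. Of 5 MPK genes above 6, MPK5 was 1.84 and MPK7 1.17 higher in pANDA, and MPK8 was 1.06 lower.

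The largest differences of named genes on the lower side were in phytoalexin synthesis and defence. CYP701A8, an ent-kaurene oxidase-like P450, read 2.98 and 2.94 in pANDA, against 7.40 and 7.49 in B4NU. CYP71Z7, a P450 that acts on phytoalexin precursors, read 2.80 and 2.80 in pANDA, against 6.82 and 6.64 in B4NU, at least 15.3-fold lower. Both pANDA arrays were close to the floor at these genes and far below both B4NU arrays. They were the 2 genes above 6 among 16 listed, both through B4NU alone, so they could only count as lower. The diterpene synthase gene CPS2 read 2.44 and 2.44 in pANDA, against 4.90 and 4.14 in B4NU, and did not pass the level filter. The median over the 16 genes was -0.22, and after centring it was -0.02.

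PBZ1 read 6.44 and 6.77 in pANDA, against 11.20 and 11.20 in B4NU, 24.1-fold lower. Pir7b, an esterase gene induced by Pseudomonas syringae in rice, read 5.43 and 5.44 in pANDA, against 9.06 and 9.09 in B4NU. The chitinase genes went both ways. Cht6 read 7.96 and 7.89 in pANDA, against 3.79 and 3.93 in B4NU, and was 4.07 higher. Cht8 read 6.58 and 6.45 in pANDA, against 8.62 and 8.75 in B4NU, and its other probe set above 6 was lower by 2.42. Of 10 defence genes 7 were above 6, with 1 higher and 3 lower in pANDA, against 5.44% and 6.58% of all genes above 6. Of these 7, 2 passed the level filter through pANDA alone and 1 through B4NU alone. CYP71P1, which makes serotonin from tryptamine in rice, was 1.85 lower in pANDA.

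Genes of sugar mobilization, oxygen handling and fermentation were lower in pANDA as a group defined after values were seen. Of 18 genes 10 were above 6, and all 10 had a negative difference, with 6 at -1 or below and 0 higher. Of the 10, 3 passed the level filter through B4NU alone. Of all genes above 6, 6.58% were at -1 or below and 5.44% were higher. After centring all 10 were still negative, with 5 at -1 or below. AMY1A, an alpha-amylase gene that degrades starch, read 8.77 and 8.86 in pANDA, against 11.21 and 11.21 in B4NU, a difference of -2.40. NSHB2, a nonsymbiotic haemoglobin gene, read 6.24 and 5.98 in pANDA, against 8.18 and 8.12 in B4NU. AOX1a, the alternative oxidase of the mitochondrial chain, was 1.88 lower, and the sucrose synthase gene SUS4 was 1.76 lower. The pyruvate decarboxylase gene PDC2 was 1.36 and NSHB1 was 1.11 lower, and NSHB1 was only 0.91 lower after centring. No array of pANDA overlapped B4NU at these 6 genes.

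Proteasome subunit genes mostly showed small negative differences. Of 19 genes 18 were above 6, at -1.13 to -0.06 as deposited, and 3 passed the threshold: PAE1 at -1.13, PAA1 at -1.11 and TBP1 at -1.02. After centring, 16 of the 18 were negative, 2 were positive and 0 reached -1. The median over the 18 was -0.58, against -0.29 over all genes above 6. Glutathione S-transferases, which detoxify electrophiles, had 6 of 6 genes above 6 with 2 lower, GSTF1 at -1.55 and GSTU6 at -1.36. Kinases that pair with CBL calcium sensors had 9 of 24 above 6, with CIPK2 at -1.30, CIPK10 at -1.20 and CIPK32 at -1.06 and CIPK1 higher by 1.00. Among calcium-dependent kinases, CPK24 at -1.08 was the 1 of 8 above 6 that met the rule.

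Other named genes on the lower side had no listed family. SAUR39, a small auxin-responsive gene that limits auxin levels in rice, read 2.77 and 2.78 in pANDA, against 6.07 and 6.17 in B4NU, at least 10.2-fold lower. BURP16, which encodes a BURP-domain protein, was 2.11 lower. SAPK9, a SnRK2 kinase of abscisic acid signalling, was 1.79 lower, and the nucleoredoxin gene OsNrx1-2 was 1.63 lower. BC1L9, a COBRA-like gene of the cell wall, was 3.35 higher in pANDA.

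**Figure D3:**
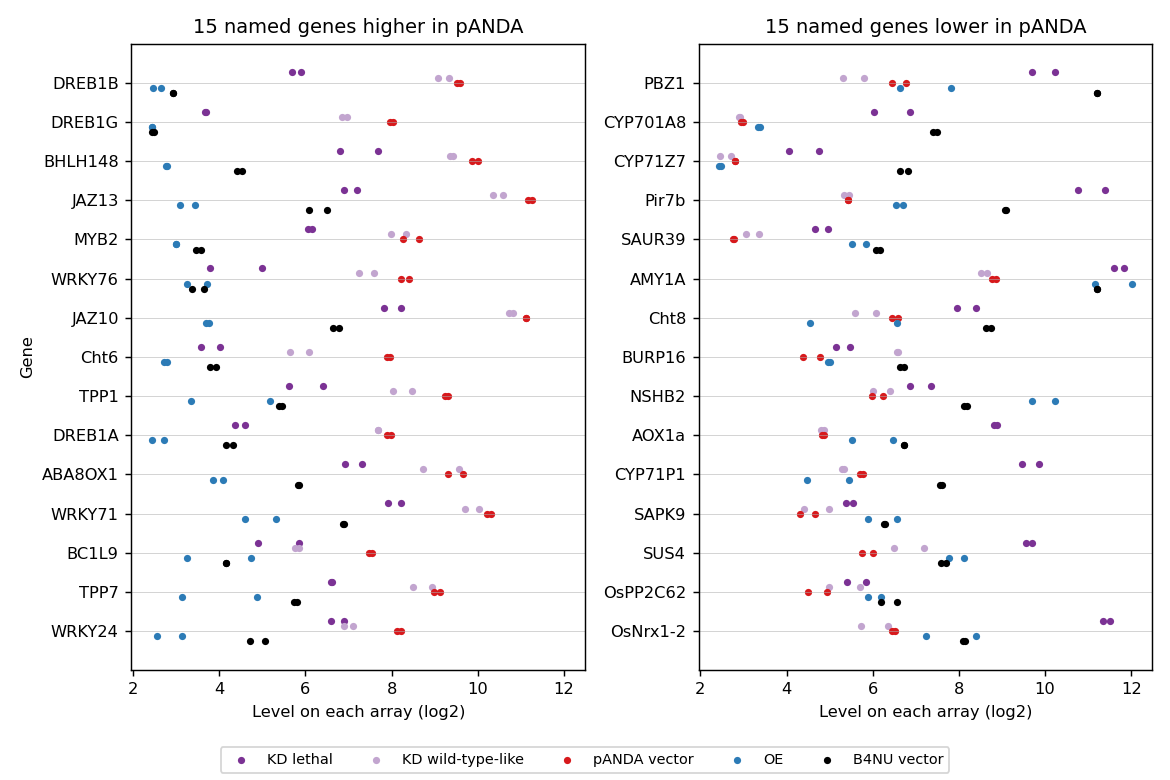
Level on each array (log2, horizontal axis) of the 15 named genes furthest above and the 15 furthest below B4NU in pANDA, with 1 point per array and colours for the 5 groups. On the left the KD wild-type-like points often lie near the pANDA points. At Cht6, BC1L9, WRKY24, DREB1G and TPP1 their mean lies more than 1 below the pANDA mean. On the right the KD lethal points often lie near or beyond the B4NU points, as PBZ1 and AOX1a show.

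Other listed groups were small, and their counts are read against the 5.44% higher and 6.58% lower of all genes above 6. None of the 6 clock and flowering-time genes above 6 met the rule, and their nearest was CKI at -0.99. Neither did any of the 3 photoreceptor genes above 6, the 10 leaf-linked genes and the 1 seed storage gene. Heat shock factors and chaperones had 11 of 45 genes above 6, with HSFB1 higher by 1.07 and HSFC1B lower by 1.03. Iron and metal genes had 7 of 17 above 6, with NAS2 higher and the metal tolerance gene MTP1 at -1.08. Phosphate and nitrogen genes had 4 of 15 above 6, of which PT8 passed the level filter through pANDA alone and was higher.

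**Figure D4:**
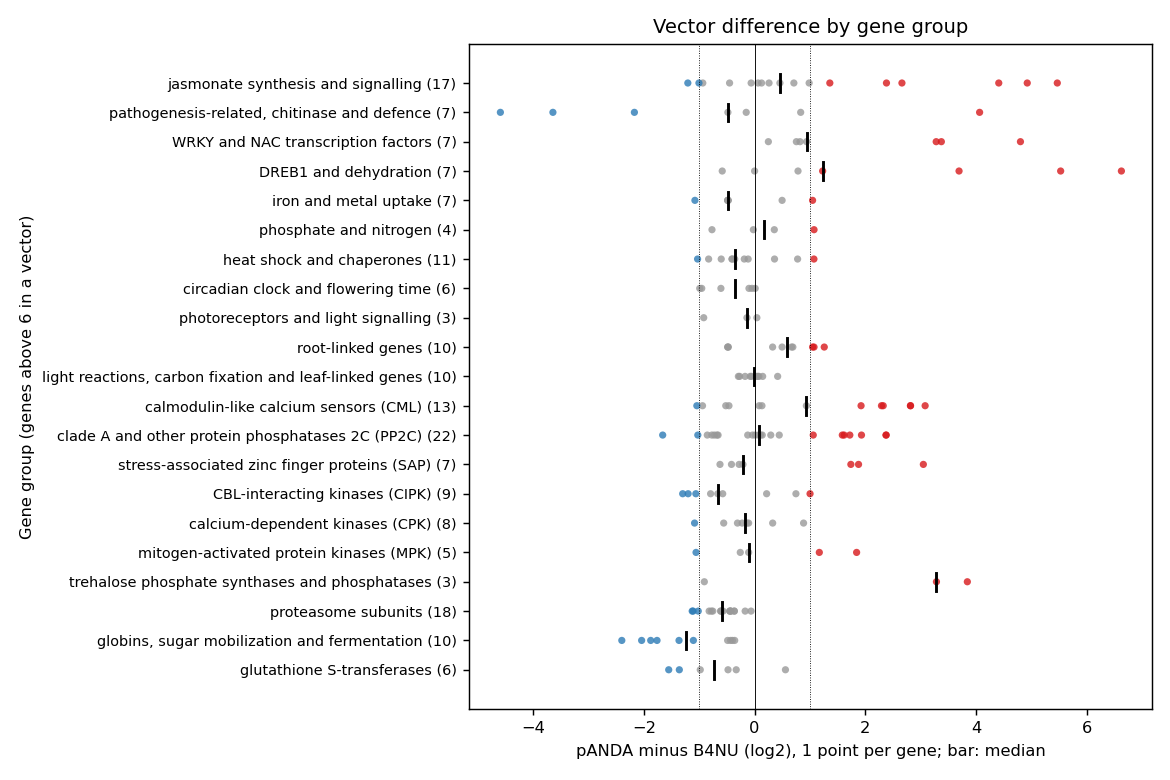
Difference between the vectors (pANDA minus B4NU, log2) for each gene above 6 in a vector, by gene group, with the median as a bar and dotted lines at -1 and 1. Jasmonate, DREB1 and CML genes reach far to the right, proteasome genes lie left of 0 as deposited (2 of the 18 lie right of 0 after centring), and leaf-linked genes stay between the dotted lines.

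The probe sets most apart had no gene name. The one with the largest difference, paired with no gene, read 11.34 and 11.58 in pANDA, against 2.77 and 2.77 in B4NU, at least 413-fold higher. It stood at 10.71 and 10.69 in KD wild-type-like, at 7.08 and 7.52 in KD lethal, and at 2.77 on both OE arrays. LOC4345815 was 7.37 and LOC4331849 was 6.77 higher in pANDA. Another probe set with no gene read 8.27 and 8.20 in pANDA and at most 2.51 on all 8 other arrays. On the lower side LOC4326659 read 3.37 and 3.37 in pANDA, against 7.98 and 8.02 in B4NU, and it reached 11.22 and 10.72 in KD lethal. These were chosen after their values were seen.

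Different probe sets of a gene mostly, but not always, had the same sign. Of 81 genes with at least 1 of the 968 and more than 1 probe set above 6, 25 had all of these among the 968 on the same side, 0 had them on opposite sides, and 60 had the same sign throughout. Of 1430 pairs of neighbouring genes with both above 6, 26 had both genes in the rule, 11 both higher, 11 both lower and 4 in opposite directions. Of all genes above 6, 5.44% were higher and 6.58% lower, and the number of pairs expected from these shares was not computed. The 26 pairs are therefore not read as a trait of neighbouring genes. AMY1A at -2.40 and its neighbour LOC4330830 at -4.11 were a lower pair, and LOC4347265 at -2.70 beside LOC4347266 at 4.88 were an opposite one.

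The named genes nearest the threshold show where the rule begins. Just inside were CIPK1 at 1.00, PRXIIE-2 at 1.03 and NAS2 at 1.05 on the higher side, and BBD2 at -1.001, bip104 at -1.001 and CM-LOX1 at -1.005 on the lower side. Just outside were RSZP21 and JAZ4 at 0.99 and AT4 at 0.98, and HPT1 at -0.995, XCT at -0.99 and CKI at -0.99. Under the other scalings and with 1 vector array left out, CIPK1 ranged from 0.951 to 1.20, so its side of the threshold depended on the setting.

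The 6 arrays of OsbZIP48 seedlings were not used by the rule. KD wild-type-like minus OE crosses the same 2 sets of arrays as the vectors do, so it is given as a description. Of the 427 probe sets higher in pANDA, 395 (92.5%) were at least 1 higher in KD wild-type-like than in OE and 2 were at least 1 lower, against 21.4% and 8.50% of the 7399. Of the 541 lower in pANDA, 152 (28.1%) were at least 1 lower in KD wild-type-like, 60 were at least 1 higher, and 329 differed by less than 1. Over the 7399 probe sets the correlation of these differences was r = 0.646, and the points share the sets.

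JAZ13 shows the higher side. It read 10.59 and 10.34 in KD wild-type-like, against 3.10 and 3.44 in OE, a difference of 7.20. DREB1B read 9.08 and 9.33 in KD wild-type-like, against 2.45 and 2.66 in OE, and MYB2 read 7.98 and 8.34 in KD wild-type-like, against 2.99 and 2.99 in OE. On the lower side AMY1A and NSHB2 kept their side, at -3.01 and -3.75. CYP701A8 did not: it read 2.92 and 2.90 in KD wild-type-like, against 3.37 and 3.34 in OE, so B4NU alone of these 4 groups was high. BURP16 turned round, at 6.57 and 6.60 in KD wild-type-like, against 4.97 and 5.01 in OE.

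**Figure D5:**
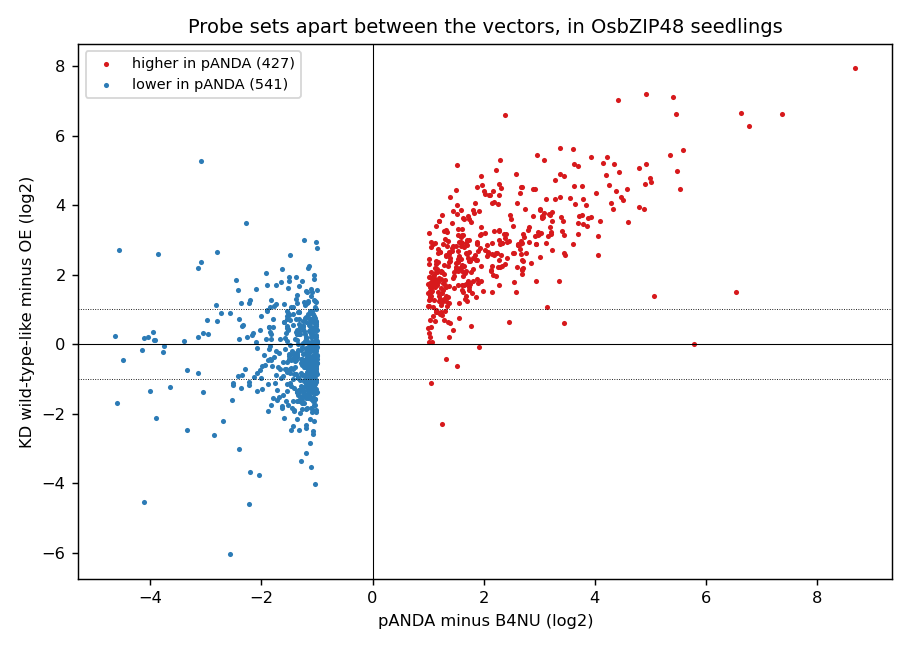
KD wild-type-like minus OE (log2, vertical axis) against pANDA minus B4NU (log2, horizontal axis) for the 968 probe sets, with dotted lines at -1 and 1. Of the 427 red points 395 lie at or above 1, and of the 541 blue points 152 lie at or below -1.

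KD wild-type-like lay nearer the pANDA mean than the B4NU mean at 383 of the 427 higher and 435 of the 541 lower probe sets. OE lay nearer pANDA at 11 of the 427 and at 253 of the 541. KD lethal lay nearer pANDA at 135 of the 427 and at 207 of the 541. By at least 1 log2 unit, pANDA stood above all 4 other groups at 35 of the 427 and B4NU stood above all others at 55 of the 541. OE stood below all others at 124 of the 427. These counts were not tested, and the matching shares among all probe sets above 6 in a vector were not computed. The counts are therefore not read as a trait of the members. KD wild-type-like and pANDA lie in the same set of arrays, as OE and B4NU do. The mean 3′ minus 5′ control signal was low in OE replicate 1, at 0.244. The part of the sets and of this signal in the counts was not tested.

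The knock-down groups were compared with each other within 1 set, with no vector array in their means. This contrast was tested with limma over all 57258 probe sets, with the spread pooled over all 10 arrays, vector arrays included. The members are not neutral in it, because 273 of the 427 passed the level filter through pANDA alone and KD wild-type-like was mostly near pANDA. Of the 427 probe sets higher in pANDA, 196 (45.9%) fell and 11 (2.58%) rose in KD lethal relative to KD wild-type-like. Among the 7399, 21.7% fell and 12.8% rose, and among all probe sets 4.72% fell and 6.48% rose. Of the 541 lower in pANDA, 193 (35.7%) rose and 69 (12.8%) fell. The median difference was -1.44 for the 427, 0.90 for the 541 and -0.10 for the 7399. With the 6 arrays of OsbZIP48 seedlings and no vector array in the fit, 64 of the 427 fell and 3 rose, and 59 of the 541 rose and 22 fell, against 7.64% falls and 2.298% rises among the 7399. Fitted on their own 4 arrays alone, 42 of the 427 fell and 0 rose, and 33 of the 541 rose and 12 fell. Among the 7399, 5.14% then fell and 1.70% rose. Without KD wild-type-like replicate 2 the 196 became 124 and the 193 became 121, and the 69 became 43 without KD lethal replicate 2 and 44 without KD wild-type-like replicate 1. The mean 3′ minus 5′ control signal was 1.70 and 0.996 in KD lethal, against 1.87 and 2.44 in KD wild-type-like. Of the 11 leaf-linked genes 10 were at least 1 lower in KD lethal, with a median of -3.18. Their part in these counts was not tested.

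Among the 15 named genes furthest above B4NU in pANDA, 11 fell and 0 rose in KD lethal relative to KD wild-type-like. Among the 7399, 21.7% fell and 12.8% rose. The 15 were chosen for high pANDA values, and KD wild-type-like was mostly near pANDA, so they are not neutral here. DREB1B read 5.69 and 5.89 in KD lethal, against 9.08 and 9.33 in KD wild-type-like (-3.42 ± 0.12 SE, limma adjusted p = 0.00014). DREB1G fell by 3.23 (adjusted p = 1.53e-05) and DREB1A by 3.22 (adjusted p = 0.000187). These DREB1 genes were the 3 of the 11 that also passed with their own 4 arrays alone, and 6 of the 11 passed with no vector array in the fit (the DREB1 genes, JAZ13, JAZ10 and MYB2). JAZ13 read 6.89 and 7.19 in KD lethal, against 10.59 and 10.34 in KD wild-type-like (-3.43 ± 0.20 SE, adjusted p = 0.000592, and 0.0529 with the 4 arrays). TPP1 at -2.25 and TPP7 at -2.11 did not pass, and neither did BC1L9 and WRKY24.

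Among the 15 furthest below B4NU in pANDA, 10 rose and 1, BURP16, fell, against 12.8% rises and 21.7% falls among the 7399. Being chosen for low pANDA values, these 15 are not neutral in this contrast either. Pir7b read 10.76 and 11.39 in KD lethal, against 5.45 and 5.34 in KD wild-type-like (5.68 ± 0.20 SE, limma adjusted p = 0.000151, and 0.0531 with the 4 arrays). PBZ1 read 10.22 and 9.71 in KD lethal, against 5.30 and 5.79 in KD wild-type-like (4.42 ± 0.43 SE, adjusted p = 0.0029, and 0.0716 with the 4 arrays). AOX1a rose by 4.02, CYP71P1 by 4.35 and AMY1A by 3.14, and these 3 also passed with their own 4 arrays alone. With no vector array in the fit, CYP701A8, Pir7b, AOX1a, CYP71P1 and OsNrx1-2 still rose and BURP16 still fell, while PBZ1 and AMY1A no longer passed. NSHB2, SAPK9, Cht8 and OsPP2C62 did not pass.

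Differences from the vector of the same set use the arrays that chose these genes, so they are given as a description, without a test. The labels do not pair vectors with transgenes, and at the reporter probe sets above the pANDA arrays stood apart from both knock-down groups, so whether pANDA is the vector of the knock-down lines was not settled here. OE was below B4NU at genes from both sides. JAZ13 was lower in OE by 3.02 log2 and JAZ10 by 2.98, and on the other side CYP71Z7 was lower by 4.27, CYP701A8 by 4.09 and PBZ1 by 3.97. AMY1A differed by 0.38, and NSHB2 was 1.82 higher in OE. The mean 3′ minus 5′ control signal was 0.244 and 2.42 in OE, against 1.72 and 1.53 in B4NU, and its part in these values was not tested.

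KD wild-type-like lay close to pANDA at several of the genes most apart between the vectors. The difference from pANDA was -0.34 at DREB1B, -0.36 at JAZ10, -0.04 at Pir7b and -0.05 at CYP701A8. It was wider at Cht6 (-2.07), DREB1G (-1.09), PBZ1 (-1.06) and BURP16 (2.01). KD lethal stood away from pANDA at genes of both sides. Cht6 read 3.57 and 4.02 in KD lethal, against 7.96 and 7.89 in pANDA, a difference of -4.13. JAZ13 was 4.18 lower in KD lethal than in pANDA, and Pir7b was 5.64 higher.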

How the data were processed

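Seedling RNA of 5 groups of 2 was measured on 1-colour Affymetrix rice arrays. The authors deposited log2 values per probe set and array, made with GCOS and Affymetrix Expression Console 1.4.1.46 per the submitters' processing notes. How they were normalized was not stated in those notes. The log2 scale was read from the range of the values. Of 57381 probe sets 123 controls were left out. The number of arrays limits the precision.

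Names came from the platform annotation (22436 probe sets with 1 gene, 95 with several, 34727 with none) and the RefSeq table of ASM3414082v1. All 17905 genes were looked up there and 2451 had a name. Where a gene had several probe sets, the one with the highest overall mean stood for it.

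The vectors, and differences from them, were described without a test. KD lethal minus KD wild-type-like was tested with limma 3.58.1 in R 4.3.3, with 1 coefficient per group over 10 arrays (5 residual degrees of freedom), two-sided and adjusted by Benjamini-Hochberg over 57258 probe sets, and calls at 0.05. In simulated data the model recovered 38 of 67 changes of 1 log2, 55 of 67 of 2 and 57 of 66 of 4, with 6 other calls. The simulated noise was drawn from the model's own fitted spread, so that spread itself was not tested. P-values measure the spread between these samples only.

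The members and lists were chosen with earlier results of these data known. Named were the 15 largest differences on each side, the genes of 13 lists that met the rule, and the 3 nearest the threshold on each side. A further 10 families, unnamed probe sets and reporter probe sets were added after values were seen. Alternatives were quantile normalization, centring, other thresholds and level filters, other variance models, a replicate block, leaving out arrays and a fit without vector arrays. Of 161 alternative values of list medians, 47 moved by more than the replicate SD.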

Additional observations from a re-analysis of the deposited data

How the results depend on the processing

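The vector counts moved with every threshold. At 1.5 log2, 289 probe sets were higher and 152 lower in pANDA, and at 2 there were 191 and 72. With means above 5, above 7 and no filter the lower count was 847, 284 and 1263, and the higher count was 578, 277 and 760. Quantile normalization over all 10 arrays gave 550 higher and 269 lower, and centring 554 and 258. Leaving out 1 vector array gave 423 to 451 higher and 513 to 611 lower. Of 541 lower probe sets, 70 and 26 were at least 1.5 and 2 lower in KD wild-type-like than in OE, and 133 to 190 of 541 and 363 to 404 of 427 kept their side by at least 1 when 1 array was left out.

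For KD lethal minus KD wild-type-like, the 4 arrays alone gave 42 falls and 0 rises among the 427 and 33 rises and 12 falls among the 541. The background was then 5.14% falls and 1.70% rises. The 6 arrays of OsbZIP48 seedlings, a fit added after seeing the data, gave 64 falls and 3 rises among the 427 and 59 rises and 22 falls among the 541. Leaving out 1 array of any group gave 124 to 237 falls and 8 to 13 rises among the 427, and 121 to 240 rises and 43 to 97 falls among the 541. Array weights, a trended prior and a fit on the 7399 alone gave 206 to 254 falls among the 427 and 201 to 251 rises among the 541. Among the 7399 these fits gave 22.3% to 29.2% falls and 13.3% to 19.3% rises. The share called among the 7399 moved with every fit, those with arrays left out included. A change in the counts is therefore not read as a trait of the members. Without KD lethal replicate 2 and OE replicate 1, whose 3′ minus 5′ signals (0.996 and 0.244) were lowest, 1 array was left in each of these groups. The counts of that fit, chosen after seeing the data, are therefore not given. Replicate numbers did not pair the samples, with correlations of -0.71 to 0.48 over the 10 pairs of groups. With the replicate number as a block, 159 fell and 10 rose among the 427, and 165 rose and 53 fell among the 541. Among the 7399, 18.1% then fell and 10.1% rose.

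All 30 top named genes differed by at least 1 in every alternative. They were chosen for the largest differences on these same values, so this outcome was largely set by the choice. Over 84 named genes, 504 alternative values held 396 that moved by less than the replicate SD and 108 that moved by more. Leaving out 1 of 2 arrays cannot move a mean by more than this SD. All 84 values in each such setting therefore stayed within it by construction. With centring 57 moved by more and 27 by less, and with quantile normalization 51 moved by more and 33 by less. Of 161 alternative values of 23 list medians, 47 moved by more than the replicate SD, 19 of them with centring and 12 with quantile normalization. Of 22 calls among the 30 genes in KD lethal minus KD wild-type-like, 16 were lost with its 4 arrays alone, 10 with no vector array in the fit and 0 with the block. With 2 arrays a group, a missed threshold does not show that values were alike.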
